A study of Mus musculus with 8 samples.

Results

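The genes described are 10 parts of the machinery by which macrophages and osteoclast precursors sense TNF and RANKL, of 24421 genes in the table. They were taken by symbol: the receptors Tnfrsf1a (TNFR1), Tnfrsf1b (TNFR2) and Tnfrsf11a (RANK), the adaptors Traf1, Traf2, Traf3 and Traf6, the ubiquitin ligase Birc3 (cIAP2), and the kinases Ripk1 and Map3k14 (NIK). Each of the 10 symbols had 1 row, and each of the 10 passed the filter for testing (at least 1 CPM, reads of a gene scaled to the library's total, in at least 2 libraries). Poly-A RNA was sequenced from mouse bone marrow macrophages, phagocytes that can also become osteoclasts, in 4 groups of 2 libraries. The groups were Rbpj knockout with TNF at 40 ng/ml for 2 days, Rbpj knockout at day 0, wild type with TNF at 40 ng/ml for 2 days, and wild type at day 0. The knockout carries Rbpj flox/flox alleles and LysMcre, so Cre is driven in cells that use the lysozyme M gene, and a cell without enough Cre keeps Rbpj. The labels used here do not say whether the wild-type controls carry Cre or floxed alleles, nor give the age of the mice, nor how many mice gave each library. As no library was cultured for 2 days without TNF, a TNF difference here also holds the time in culture. The p-values measure the spread between these libraries, which may be technical.

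TNF binds TNFR1, found on most cells, and TNFR2, found mainly on blood cells. TNFR1 gathers RIPK1, TRAF2 and the cIAP ubiquitin ligases and starts canonical NF-kB and MAP kinase signalling or cell death, while TNFR2 recruits TRAF2, TRAF1 and the cIAPs. RANK, the receptor for RANKL, signals largely through TRAF6 and drives precursors to become osteoclasts. In resting cells TRAF3, TRAF2 and the cIAPs hold NIK at a low protein level, and NIK activates the noncanonical branch of NF-kB. RBP-J, the DNA-binding partner of Notch, is known in mice as a restraint on osteoclast formation driven by TNF.

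The libraries held 9855859 to 35653203 reads, the fewest in knockout with TNF replicate 1. Rbpj had 21.4 to 38.9 CPM in the 4 knockout libraries, against 178 to 226 CPM in the 4 wild-type libraries. Its difference, knockout minus wild type, was -2.96 ± 0.27 after TNF (limma adjusted p = 0.0735; 0.00339 once replicate number was a block, and 0.0816 if wild-type TNF replicate 2 was then left out) and -2.60 ± 0.27 at day 0 (0.238; 0.0264 with that block, 0.0985 to 0.723 without any 1 library other than the knockout TNF ones). The 10 macrophage markers looked up all had reads, with a summed level of 5372 to 10753 CPM, of which Csf1r made up 1785 to 3266 CPM. Not all macrophage markers stayed level, and they did not move in one direction. Csf1r, Spi1 and Lyz2 were higher with TNF in both replicates of both genotypes, and Adgre1, Mrc1 and Fcgr1 were lower. Cd68, Itgam, Mertk and Cx3cr1 were higher in some pairs and lower in others. Lyz2 had 7.25 to 102 CPM. Mrc1, the mannose receptor, had 59.7 and 88.1 CPM in the knockout with TNF and 881 and 892 CPM at day 0. In wild type Mrc1 had 106 and 87.2 CPM with TNF and 1137 and 1457 CPM at day 0. It fell with TNF in both genotypes (-3.60 ± 0.28, limma adjusted p = 0.00457 in the knockout, and -3.74 ± 0.28, 0.010 in wild type). Fcgr1, an Fc receptor, had 5.17 and 5.96 CPM in the knockout with TNF and 167 and 440 CPM at day 0, against 12.5 and 43.2 CPM in wild type with TNF and 149 and 331 CPM at day 0 (adjusted p = 0.0135 in the knockout, and 0.111 in wild type, 0.00446 with the block). The 10 osteoclast markers summed to 18804 and 45864 CPM in the knockout with TNF and 151 and 248 CPM in the knockout at day 0, against 6579 and 4965 CPM in wild type with TNF and 144 and 220 CPM in wild type at day 0 (replicates 1 and 2). Of the other cell types, the 11 neutrophil markers found summed to 63.1 and 65.7 CPM in the knockout with TNF and to 291 and 1060.4 CPM in the knockout at day 0, against 124 and 219 CPM in wild type with TNF and 187 and 895 CPM in wild type at day 0. The 9 stromal markers summed to 140 to 215 CPM in the 4 libraries numbered 1 and to 5.06 to 38.8 CPM in the 4 numbered 2. The 7 dendritic cell markers summed to 12.9 to 566 CPM, highest in wild type with TNF replicate 2, where Itgax alone had 555 CPM. The 9 T and NK cell markers found (1.96 to 26.7 CPM), the 8 B cell markers (1.09 to 10.5 CPM) and the 7 mast cell and basophil markers (0.25 to 4.77 CPM) stayed low in all 8 libraries, with Gzma at 0 in each. The 8 erythroid and megakaryocyte markers summed to 33.2 to 371 CPM, with Hba-a1 and Hbb-b1 at 0 in each. What these markers contribute to the differences below was not tested, and in such bulk RNA fewer cells of a type and less RNA per cell cannot be told apart.

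The replicate number marks a difference that runs through all groups, so limma was fitted without it and, as an alternative, with it as a block. A value "with the block" comes from the second fit. A log2 difference is on the log2(CPM + 0.5) scale with the moderated standard error of limma, and each adjusted p (Benjamini-Hochberg) is over the 12194 genes tested.

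**Figure D1:**
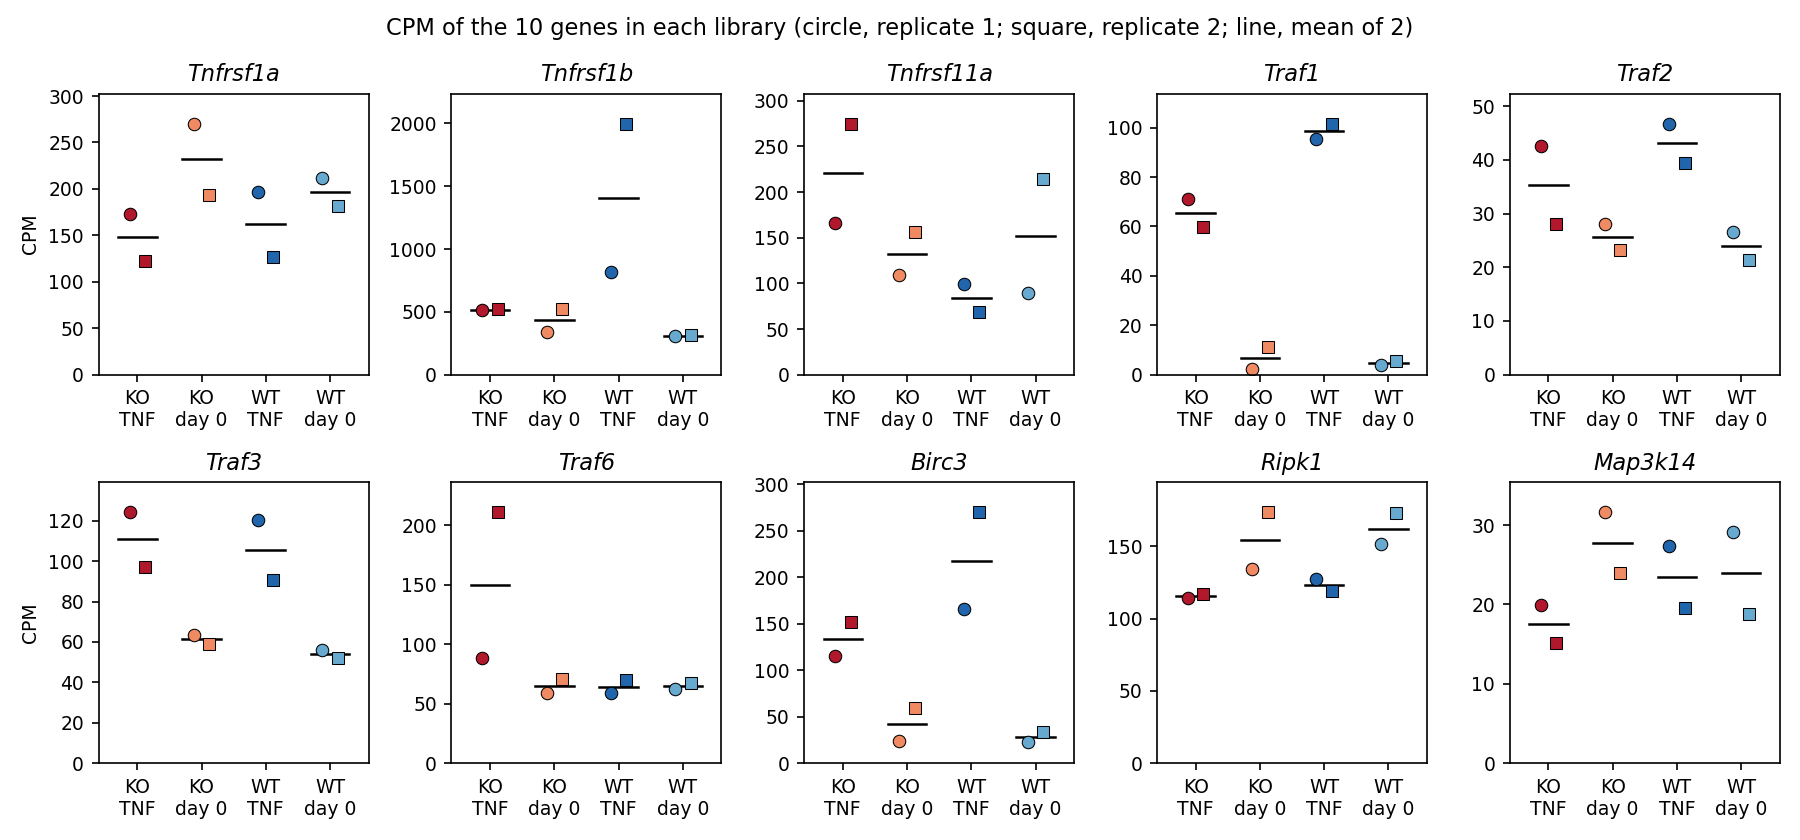
CPM (y axis) of each of the 10 genes in every library, by group (x axis; KO, Rbpj knockout; WT, wild type); circles are replicate 1, squares replicate 2, and lines the mean of the 2. Traf1 and Birc3 stand high in both TNF groups, Tnfrsf1b is highest in WT with TNF (815 and 1999 CPM), and Tnfrsf11a and Traf6 are highest in KO with TNF (275 and 211 CPM in replicate 2).

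Levels were compared between genes as CPM per kb of annotated exon. Tnfrsf1b and Tnfrsf1a held the top 2 places in all 4 groups, and Map3k14 or Traf1 the last. In the knockout with TNF, Tnfrsf1b stood at 136 ± 0.761 CPM per kb (mean ± SD, n = 2), followed by Tnfrsf1a at 57.0 ± 13.8, Tnfrsf11a at 36.9 ± 12.8, Birc3 at 26.6 ± 5.09 and Traf6 at 19.0 ± 11.01. The ranges of Tnfrsf11a and Birc3 overlapped there, as did those of Birc3 and Traf6. In wild type with TNF the order after Tnfrsf1b (369 ± 219 CPM per kb) and Tnfrsf1a (62.4 ± 19.0) was Birc3 (43.5 ± 14.7), Ripk1 (14.8 ± 0.660), Traf3 (14.4 ± 2.87) and Tnfrsf11a (14.0 ± 3.72), the last 3 with overlapping ranges. At day 0, Tnfrsf1b and Tnfrsf1a had overlapping ranges in both genotypes, and Traf1 was lowest, at 0.752 ± 0.725 CPM per kb in the knockout and 0.541 ± 0.116 in wild type. These levels rest on the exon lengths of GENCODE M21, which may differ from the annotation the reads were counted on.

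**Figure D2:**
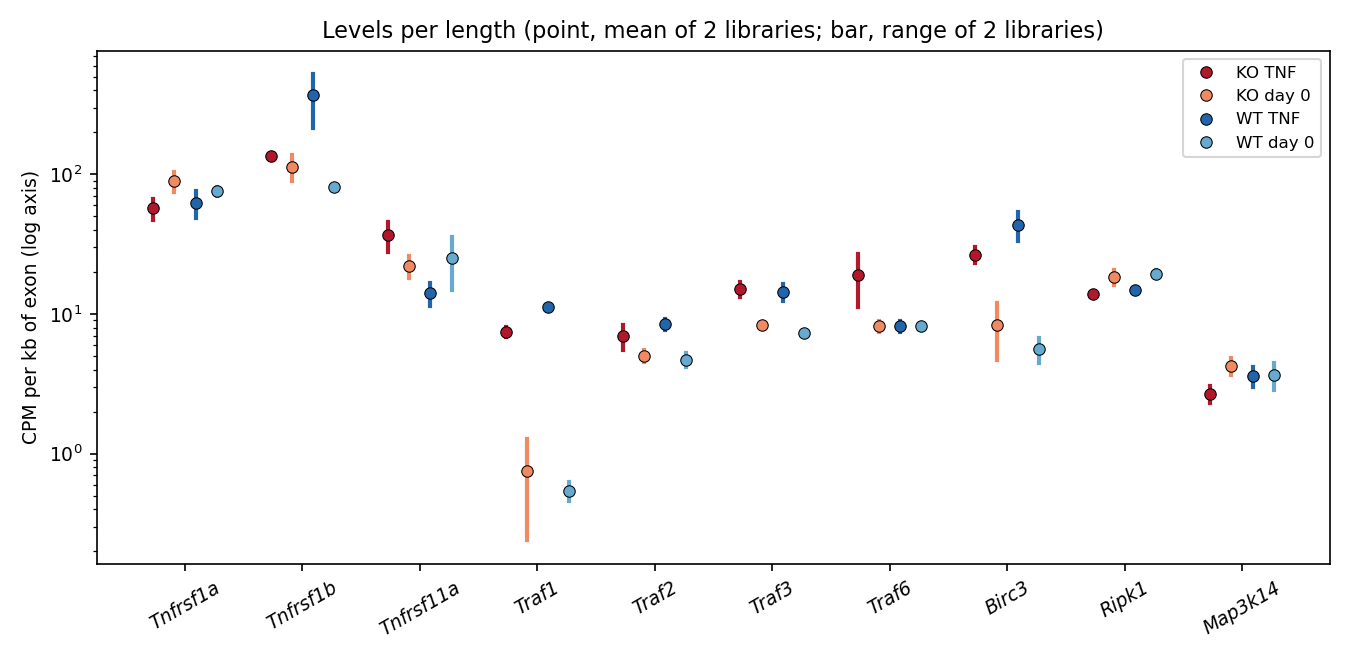
CPM per kb of annotated exon (log y axis) for the 10 genes (x axis) in the 4 groups; points are means and bars the range of 2 libraries. The Traf1 points at day 0 (0.752 and 0.541) are the lowest and the Tnfrsf1b point of WT with TNF (369) the highest.

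The promoters of 4 of the genes are shown: Traf1 and Birc3 because both rose with TNF in both genotypes with the block, Tnfrsf11a because its mean was highest in the knockout with TNF, and Traf3 because it alone of the 10 had a match to an NF-kB motif. The sequences are RefSeq's (GRCm38.p6), from 250 bases before to 50 after the start of the gene, and capitals mark the motif match.
Traf1 promoter, chr2:34961723-34962022, minus strand: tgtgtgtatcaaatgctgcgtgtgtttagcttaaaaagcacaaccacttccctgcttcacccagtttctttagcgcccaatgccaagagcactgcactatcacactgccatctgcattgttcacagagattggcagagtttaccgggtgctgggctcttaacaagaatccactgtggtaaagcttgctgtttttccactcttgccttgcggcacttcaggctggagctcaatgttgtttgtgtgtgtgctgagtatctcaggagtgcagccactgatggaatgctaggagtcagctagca
Birc3 promoter, chr9:7873121-7873420, minus strand: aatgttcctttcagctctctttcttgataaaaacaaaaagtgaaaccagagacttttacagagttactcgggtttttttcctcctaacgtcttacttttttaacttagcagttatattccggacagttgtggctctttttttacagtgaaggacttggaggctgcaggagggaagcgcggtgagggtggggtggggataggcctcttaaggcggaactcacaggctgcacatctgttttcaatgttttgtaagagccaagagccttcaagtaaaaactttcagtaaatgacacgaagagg
Tnfrsf11a promoter, chr1:105780473-105780772, plus strand: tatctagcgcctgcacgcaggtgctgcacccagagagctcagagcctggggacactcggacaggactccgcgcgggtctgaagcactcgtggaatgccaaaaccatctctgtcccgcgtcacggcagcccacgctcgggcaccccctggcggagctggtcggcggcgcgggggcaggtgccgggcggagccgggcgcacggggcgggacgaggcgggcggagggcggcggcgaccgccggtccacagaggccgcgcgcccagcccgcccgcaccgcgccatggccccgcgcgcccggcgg
Traf3 promoter, chr12:111166120-111166419, plus strand: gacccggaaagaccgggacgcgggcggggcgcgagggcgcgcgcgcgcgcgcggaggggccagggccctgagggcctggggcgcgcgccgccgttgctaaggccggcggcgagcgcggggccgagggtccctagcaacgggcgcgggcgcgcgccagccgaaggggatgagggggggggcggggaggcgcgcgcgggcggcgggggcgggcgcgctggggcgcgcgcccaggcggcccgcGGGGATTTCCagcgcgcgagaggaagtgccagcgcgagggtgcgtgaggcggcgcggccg
All 10 genes matched a promoter in the RefSeq table, Ripk1 with 2, and both strands were searched. The 10-base NF-kB consensus was found in 1 of the 10 genes, Traf3, as GGGGATTTCC at -10 from the start, and in 4.51% of 32851 promoters. The RBP-J core TGGGAA was found in 0 of the 10 and in 25.6% of all promoters, and the longer GTGGGAA, which contains it, in 0 and in 6.38%. No match says only that these letters are not in these 300 bases.

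Of the receptors, the TNFR2 gene was higher with TNF in wild type, the RANK gene had its highest mean in the knockout with TNF, and the TNFR1 gene differed least between genotypes after TNF. Tnfrsf1b (chromosome 4, 145213463 to 145246870, GRCm38, minus strand) had 516 and 521 CPM in the knockout with TNF and 340.3 and 523 CPM at day 0 (replicates 1 and 2). It had 815 and 1999 CPM in wild type with TNF and 305 and 312 CPM at day 0. Both wild-type TNF libraries lay above all 6 others, and the 2 knockout groups overlapped. In wild type the TNF difference was 2.05 ± 0.45 (limma adjusted p = 0.107, and 0.0155 with the block), and the blocked call did not hold once replicate 2 of wild type was left out at TNF (0.0791) or at day 0 (0.120). In the knockout it was 0.30 ± 0.45 (adjusted p = 0.820). Between genotypes after TNF, knockout minus wild type, it was -1.30 ± 0.45, lower in the knockout in both replicates (adjusted p = 0.333, and 0.0588 with the block). With the block it passed only without wild-type TNF replicate 1 (0.0465).

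Tnfrsf11a, the receptor through which RANKL starts osteoclast formation (chromosome 1, 105780718 to 105847981, plus strand), had 166 and 275 CPM in the knockout with TNF and 109 and 156 CPM at day 0. In wild type it had 99.7 and 68.2 CPM with TNF and 89.1 and 214 CPM at day 0. Both knockout TNF libraries lay above both wild-type TNF libraries, while the wild-type groups overlapped, with day 0 libraries far from each other. After TNF the knockout minus wild-type difference was 1.37 ± 0.49, 0.74 in replicate 1 and 2.00 in replicate 2 (limma adjusted p = 0.355, and 0.0775 with the block). With the block it passed only without wild-type TNF replicate 1 (adjusted p = 0.0405, the lowest of the 8 left-out fits with the block). The TNF difference was 0.71 ± 0.49 in the knockout (adjusted p = 0.517) and -0.74 ± 0.49 in wild type (adjusted p = 0.690, replicates at 0.16 and -1.64). The difference between these responses was 1.45 ± 0.69 (adjusted p = 0.961, and 0.239 with the block). Knockout with TNF replicate 2, the library with the most Tnfrsf11a, also had the highest osteoclast marker sum, and the part of those cells in its level was not tested.

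Tnfrsf1a (chromosome 6, 125349362 to 125362484, plus strand), the death-domain receptor, had 173 and 122 CPM in the knockout with TNF and 270.3 and 194 CPM at day 0. Wild type had 197 and 127 CPM with TNF and 212 and 181 CPM at day 0. Its TNF difference in the knockout was -0.65 ± 0.33, close to equal in both replicates (-0.64 and -0.66; limma adjusted p = 0.352, and 0.0266 with the block). This blocked call was lost without either knockout TNF or either knockout day 0 library (adjusted p = 0.0735 to 0.158). In wild type it was -0.31 ± 0.33 (adjusted p = 0.889).

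Of the adaptors, Traf1, whose promoter is printed above, had the greatest TNF difference among the 10 genes in both genotypes. Traf1 (chromosome 2, 34941750 to 34961772, minus strand) encodes a TRAF without the RING domain of its relatives that joins complexes with TRAF2 and cIAPs. It had 70.9 and 60.0 CPM in the knockout with TNF, against 2.11 and 11.2 CPM at day 0. In wild type it had 95.4 and 102 CPM with TNF, against 4.05 and 5.49 CPM at day 0. The TNF and day 0 libraries were far apart in both genotypes. It rose with TNF in the knockout by 3.58 ± 0.66 (limma adjusted p = 0.0335, and 0.00617 with the block) and in wild type by 4.25 ± 0.66 (adjusted p = 0.0440, and 0.00741 with the block). Without the block, the knockout call was lost without any single library other than knockout day 0 replicate 2 (adjusted p = 0.0522 to 0.159, against 0.0227 without that library), and the wild-type call without any single library other than the 2 knockout day 0 libraries (0.0887 to 0.273, against 0.0196 and 0.0207). Also without the block, the calls ended in edgeR (adjusted p = 0.0672 in the knockout and 0.0818 in wild type), in the knockout when its 2 groups were fitted alone (0.128), and in wild type under median-ratio scaling (0.0513) and with no filter on low values (0.0727). With the block the knockout call held in all 8 left-out fits, and the wild-type call was lost without wild-type TNF replicate 2 (0.0537) or wild-type day 0 replicate 2 (0.0621). Day 0 replicates of the knockout lay far apart, and its response was 4.78 in replicate 1 and 2.38 in replicate 2.

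Traf3 (chromosome 12, 111166370 to 111267153, plus strand) encodes the adaptor that brings NIK to the cIAPs for degradation, and its promoter held the NF-kB motif match. It had 124 and 97.3 CPM in the knockout with TNF, against 63.5 and 59.0 CPM at day 0. Wild type had 120.4 and 90.6 CPM with TNF, against 56.0 and 51.9 CPM at day 0. The groups did not overlap within either genotype, and the genotypes overlapped after TNF. The TNF differences were 0.84 ± 0.25 in the knockout (limma adjusted p = 0.119, and 0.0111 with the block) and 0.95 ± 0.25 in wild type (0.168, and 0.0156 with the block). Between the genotypes after TNF the difference was 0.07 ± 0.25 (adjusted p = 0.999). The blocked knockout call was lost without either knockout day 0 library (adjusted p = 0.0879 and 0.0673), and the wild-type call without any wild-type library (0.0597 to 0.0775).

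Traf6 (chromosome 2, 101678429 to 101701669, plus strand), the ubiquitin ligase that carries the RANK signal, stood apart from the other adaptors. It had 88.4 and 211 CPM in the knockout with TNF and 58.7 and 70.7 CPM at day 0. Wild type had 58.6 and 70.3 CPM with TNF and 62.1 and 67.8 CPM at day 0. The other 6 libraries lay within 58.6 to 70.7 CPM, and both knockout TNF libraries lay above them, replicate 2 by far. In the knockout the TNF difference was 1.08 ± 0.41, 0.59 and 1.57 in replicates 1 and 2 (limma adjusted p = 0.215, and 0.0357 with the block). This blocked call was lost without knockout TNF replicate 2 (0.127), either knockout day 0 library (0.103 and 0.212) or either wild-type TNF library (0.0588 and 0.0586). In wild type the difference was -0.02 ± 0.41 (adjusted p = 1), a value that turned to 0.10 under median-ratio scaling. After TNF, knockout minus wild type was 1.08 ± 0.41 (adjusted p = 0.393, and 0.0642 with the block). With the block it passed only without knockout TNF replicate 1 (0.0130). The difference between the responses was 1.09 ± 0.58 (adjusted p = 1, and 0.228 with the block), and with the block that too passed only without knockout TNF replicate 1 (0.0380). As for Tnfrsf11a, the highest library was the one with the highest osteoclast marker sum, and the part of those cells was not tested.

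Traf2 (chromosome 2, 25517982 to 25546940, minus strand), the adaptor shared by both TNF receptors, had 42.6 and 28.1 CPM in the knockout with TNF and 28.0 and 23.2 CPM at day 0. In wild type it had 46.8 and 39.5 CPM with TNF and 26.6 and 21.4 CPM at day 0. The TNF library was higher than the day 0 library in both replicates of each genotype. The knockout groups only just failed to overlap, with 28.06 CPM in TNF replicate 2 and 28.02 CPM in day 0 replicate 1. The TNF difference was 0.43 ± 0.31 in the knockout (limma adjusted p = 0.535, and 0.105 with the block) and 0.83 ± 0.31 in wild type (0.335, and 0.0303 with the block). The wild-type call with the block held only without either knockout TNF library (adjusted p = 0.0335 and 0.0329), and reached 0.0659 to 0.197 without any other single library.

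Birc3 (chromosome 9, 7848699 to 7873186, minus strand) encodes cIAP2, which ubiquitinates RIPK1 and NIK. It had 115 and 152 CPM in the knockout with TNF, against 23.6 and 59.8 CPM at day 0. In wild type it had 166 and 269.8 CPM with TNF, against 22.3 and 33.9 CPM at day 0. The groups did not overlap within either genotype, and both wild-type TNF libraries exceeded both knockout TNF libraries. With the block it rose with TNF in the knockout by 1.80 ± 0.23 (limma adjusted p = 0.00375) and in wild type by 2.92 ± 0.23 (0.00203), and both calls held in all 8 left-out fits. Without the block the adjusted p was 0.0996 in the knockout and 0.0552 in wild type, where it passed without either knockout day 0 library (0.0416 and 0.0424). The knockout minus wild-type difference after TNF was -0.68 ± 0.50 (adjusted p = 0.777, and 0.124 with the block), and that of the responses -1.12 ± 0.70 (adjusted p = 1, and 0.168 with the block).

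The gene of the kinase RIPK1 was lower in every TNF library than at day 0, though neither difference passed the test. Ripk1 (chromosome 13, 34002363 to 34037147, plus strand), the TNFR1 kinase that decides between survival and death signalling, had 114 and 117 CPM in the knockout with TNF and 134 and 174 CPM at day 0. Wild type had 127 and 119 CPM with TNF and 152 and 173 CPM at day 0. All 4 TNF libraries lay below all 4 day 0 libraries, by -0.40 ± 0.22 in the knockout (limma adjusted p = 0.411, and 0.116 with the block) and -0.39 ± 0.22 in wild type (0.611, and 0.169 with the block). Its exons overlap those of Serpinb6a on the opposite strand and of Gm17084, and strand use in the counting is not given in the sources used here, so its counts are uncertain to that extent.

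Map3k14 (chromosome 11, 103219762 to 103267472, minus strand) encodes NIK, whose amount in cells is set largely by protein degradation. It had 19.99 and 15.2 CPM in the knockout with TNF and 31.6 and 23.9 CPM at day 0. Wild type had 27.3 and 19.6 CPM with TNF and 29.1 and 18.8 CPM at day 0, overlapping groups. The TNF difference was -0.64 ± 0.36 in the knockout (-0.65 and -0.64 in replicates 1 and 2; limma adjusted p = 0.407, and 0.0338 with the block) and -0.01 ± 0.36 in wild type (adjusted p = 1; 0.10 under median-ratio scaling). The blocked knockout call held only without either wild-type day 0 library (adjusted p = 0.0464 and 0.0449), and reached 0.0524 to 0.224 without any other single library. Its exons overlap those of 1700028N14Rik on the same strand, so reads there are uncertain too.

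**Figure D3:**
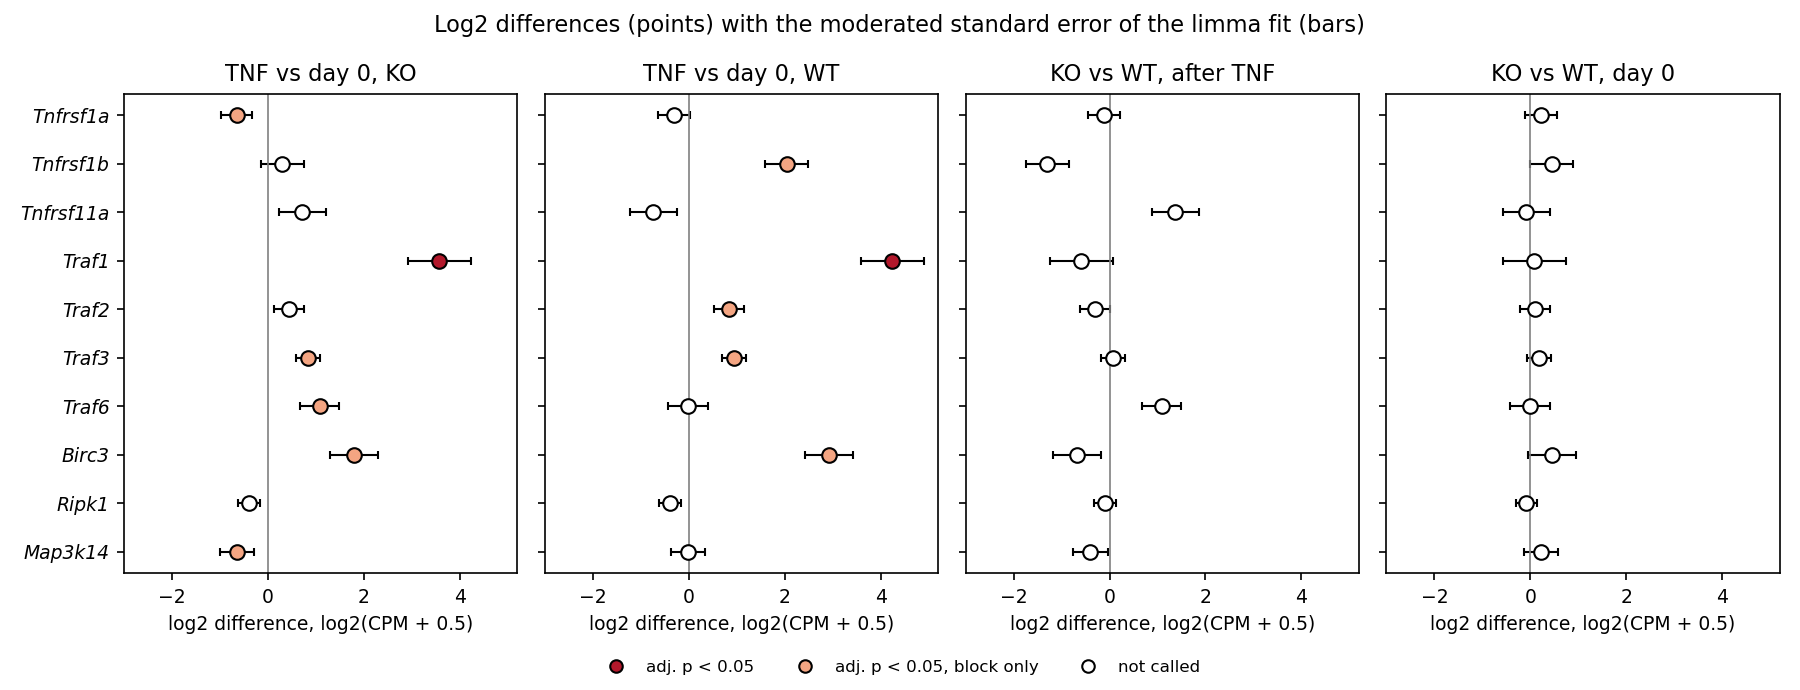
Log2 difference (x axis, log2(CPM + 0.5) scale) of each gene (y axis) in 4 comparisons, with the moderated standard error as bars; red marks adjusted p under 0.05 without the block, pale red with the block only. Traf1 is the only red point (3.58 in KO, 4.25 in WT), and none of the 10 is called between genotypes.

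Counted together, 1 of the 10 genes rose and 0 fell with TNF in the knockout without the block, where 5.1% of the genes tested were called, 3.09% higher and 2.01% lower. With the block, 4 rose (Traf1, Traf3, Traf6, Birc3) and 2 fell (Tnfrsf1a, Map3k14), where 25.9% of genes were called, 12.2% higher and 13.7% lower. In wild type, 1 rose and 0 fell, where 1.18% of genes were called, 0.812% higher and 0.369% lower. With the block 5 rose in wild type (Tnfrsf1b, Traf1, Traf2, Traf3, Birc3) and 0 fell, where 10.3% were called, 5.54% higher and 4.71% lower. The median of the 10 differences was 0.57 in the knockout, beside -0.10 over all genes tested, and 0.41 in wild type, beside -0.12. In wild type 5 of the differences lay above 0 and 5 below, so that median falls in the gap between Map3k14 and Traf6 (-0.01 and -0.02) and Traf2 (0.83). The median of all genes in wild type became -0.01 under median-ratio scaling, a shift over 0.1. Relative to the unscaled median of -0.12, the wild-type differences were 4.36 for Traf1, 3.04 for Birc3, 2.16 for Tnfrsf1b, 1.06 for Traf3 and 0.95 for Traf2. In the knockout the TNF and day 0 libraries did not overlap for 9 of the 10 genes, 6 higher and 3 lower, against 45.7% of all genes tested (20.4% higher, 25.2% lower). In wild type they did not overlap for 6, 5 higher and 1 lower, against 37.4% (14.8% higher, 22.6% lower).

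Between genotypes, limma called 0 of the 10 genes after TNF, with and without the block, where it called 0.0082% of genes without and 9.28% with the block (5.53% higher, 3.75% lower). At day 0 it called 0 of the 10, where it called 0% and 0.0082% of genes. At an unadjusted p under 0.05 there were 3 of the 10 after TNF (Tnfrsf1b, Tnfrsf11a and Traf6), beside 11.3% of all genes, and 0 at day 0, beside 1.34%, and edgeR and DESeq2 called 0 in both comparisons. The knockout and wild-type libraries did not overlap for 6 of the 10 after TNF, 2 higher in the knockout (Tnfrsf11a, Traf6) and 4 lower (Tnfrsf1b, Traf1, Birc3, Ripk1), against 34.9% of all genes (18.8% higher, 16.1% lower). At day 0 they did not overlap for 2, both higher (Tnfrsf1b, Traf3), against 18.5% (9.86% higher, 8.66% lower). For 5 genes (Tnfrsf1a, Tnfrsf1b, Traf2, Birc3 and Map3k14) the knockout was lower than wild type in both replicates after TNF and higher in both at day 0, as for 9.89% of all genes tested. With 1 library left out, the day 0 difference of Tnfrsf1a, Traf2, Birc3 and Map3k14, and that of Tnfrsf1a after TNF, changed sign. For Birc3 these differences were -0.52 and -0.83 after TNF and 0.08 and 0.81 at day 0, and for Tnfrsf1b -0.66 and -1.94 after TNF and 0.16 and 0.74 at day 0. The test of that change is the difference of TNF responses, in which limma called 0 of the 10 genes and 0% of all genes, with and without the block. At an unadjusted p under 0.05 there was 1 of the 10, beside 5.65% of all genes: Tnfrsf1b (-1.75 ± 0.63, adjusted p = 0.835, and 0.143 with the block). Replicates differed in the size of that response difference, -0.82 and -2.68. These comparisons share libraries, so their values are given side by side only.

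Genes whose profile was nearest to a member, by the root mean square difference of centred log2(CPM + 0.5) over 8 libraries among 10525 genes of at least 2 CPM on average, were as follows. For Traf1 they were Cxcl2 (0.45), Gbgt1 (0.47), Spint2 (0.51) and Ppm1n (0.52). For Birc3 they were Bvht (0.29), Cybb (0.33), Flrt3 (0.35) and Arhgef37 (0.36). For Tnfrsf11a they were Caprin2 (0.27), Glce (0.27), Cenpo (0.28) and Cd59a (0.30). For Map3k14 the nearest genes lay closer: Uhrf1bp1 (0.082), Ssh3 (0.089), Skiv2l (0.091) and Myo9b (0.094). Cxcl2, the neutrophil-attracting chemokine nearest to Traf1, had 33.0 and 17.0 CPM in the knockout with TNF, against 0.893 and 2.49 CPM at day 0. In wild type Cxcl2 had 55.2 and 59.6 CPM with TNF, against 1.38 and 3.12 CPM at day 0.

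Other genes of the pathway were read from 6 lists, to be set against the shares of all genes called with TNF (5.1% and 1.18% without the block, 25.9% and 10.3% with it, in the knockout and in wild type) and their medians (-0.10 and -0.12). Of the 11 NF-kB subunits and inhibitors, 4 rose and 0 fell with TNF in each genotype, with a median of 0.62 in the knockout and 1.10 in wild type. These were Nfkbie (2.52 ± 0.34 in the knockout, 3.82 ± 0.34 in wild type; limma adjusted p = 0.0141 and 0.0151), Relb (2.12 and 2.86; 0.0169 and 0.0188), Nfkbia (2.64 and 2.66; 0.00986 and 0.0228) and Nfkb2 (1.67 and 2.38; 0.0489 and 0.0402). RELB and NFKB2 are the subunits of the noncanonical branch that NIK controls, and NFKBIA and NFKBIE inhibit NF-kB. Each of these 8 calls was lost in 3 to 8 of the 8 left-out fits without the block (adjusted p 0.0527 to 0.282 where lost), and held in all 8 with the block. With the block, 5 of the 11 rose in each genotype, and 1 fell in the knockout and 0 in wild type.

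Of the 18 regulators of the TNFR1 complex and cell death, 2 rose and 0 fell in the knockout (median 0.04), and 1 rose and 0 fell in wild type (median -0.08). With the block, 3 rose and 1 fell in the knockout, and 4 rose and 0 fell in wild type. Tnip1, which helps A20 limit NF-kB, rose by 1.88 ± 0.36 in the knockout and 2.51 ± 0.36 in wild type (limma adjusted p = 0.0371 and 0.0376). Tnfaip3, which encodes A20, rose by 2.21 ± 0.38 in the knockout (0.0276), and its wild-type difference was 2.04 ± 0.38 (0.0692, and 0.0132 with the block). That blocked wild-type call was lost without wild-type TNF replicate 2 or wild-type day 0 replicate 2. Of the 20 kinases downstream, 0 rose and 1 fell in the knockout (median -0.11) and 1 rose and 0 fell in wild type (median -0.08); with the block 3 rose and 4 fell in the knockout, and 1 rose and 0 fell in wild type. Their medians lay near those of all genes. The shares of all genes called with the block were 25.9% in the knockout and 10.3% in wild type. Ikbke, an IKK-related kinase, had 126 and 121 CPM in the knockout with TNF and 83.2 and 71.2 CPM at day 0, against 317 and 329.9 CPM in wild type with TNF and 74.9 and 66.2 CPM at day 0. Ikbke rose in wild type by 2.19 ± 0.21 (adjusted p = 0.0151), and after TNF its knockout minus wild-type difference was -1.38 ± 0.21 (adjusted p = 0.119, and 0.0165 with the block). Ikbke was also called higher with TNF in the knockout, with the block only (limma adjusted p = 0.0180). That call was lost without any single knockout library. Map3k1 fell in the knockout by 1.42 on the log2 scale (adjusted p = 0.0387). In wild type Map3k1 was also lower with TNF, 50.6 and 77.6 CPM against 108 and 106 CPM at day 0. It was not called there, with or without the block. Of the 16 other TRAF proteins and partners, 0 were called in either genotype (medians -0.22 in the knockout and 0.24 in wild type), and with the block 2 rose and 5 fell in the knockout, and 5 rose and 0 fell in wild type.

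Of the 24 other TNF receptors listed, 14 could be tested, and 1 rose and 0 fell in each genotype (medians 0.29 in the knockout and 0.24 in wild type). With the block, 3 rose and 2 fell in the knockout, and 4 rose and 0 fell in wild type. Tnfrsf9, the co-stimulatory receptor 4-1BB, had 54.2 and 54.3 CPM in the knockout with TNF, against 3 and 3 reads at day 0. In wild type Tnfrsf9 had 12.7 and 1.27 CPM with TNF, against 3 and 1 reads at day 0. It rose in the knockout by 6.46 ± 0.86, a size that depends on the pseudocount (limma adjusted p = 0.0136), and after TNF its knockout minus wild-type difference was 3.50 ± 0.86 (adjusted p = 0.204, and 0.0386 with the block). Tnfrsf9 was also called higher with TNF in wild type, with the block only (limma adjusted p = 0.0479). That call was lost without any single library other than wild-type TNF replicate 2. Fas, the death receptor, had 13.9 and 11.3 CPM in the knockout with TNF and 5.40 and 5.02 CPM at day 0, against 28.8 and 60.3 CPM in wild type with TNF and 5.32 and 5.97 CPM at day 0. Fas rose in wild type by 2.78 ± 0.41 (adjusted p = 0.0402), and after TNF its knockout minus wild-type difference was -1.69 ± 0.41 (adjusted p = 0.201, and 0.0357 with the block). Fas was also called higher with TNF in the knockout, with the block only (limma adjusted p = 0.0449). That call was lost without any single knockout library or either wild-type day 0 library. Among 17 TNF family ligands, 12 could be tested, and 0 rose and 1 fell in the knockout (median -0.86) and 0 were called in wild type (median -0.07); with the block 5 fell in the knockout, and 2 rose and 1 fell in wild type. The 1 that fell without the block, Tnfsf14 (LIGHT), had 1 and 4 reads in the knockout with TNF, against 130 and 54 at day 0 (-2.56 ± 0.51, adjusted p = 0.0428). In wild type it had 39 and 15 reads with TNF, against 167 and 74 at day 0. There it was called lower with the block only (limma adjusted p = 0.0349). That call was lost without any single wild-type library or either knockout day 0 library. Tnfsf11, which encodes RANKL, had 0 to 5 reads in every library and was not tested. Without the block, the calls of Tnip1 (both genotypes), Fas and Tnfsf14 were lost in all 8 left-out fits (adjusted p 0.0502 to 0.273), that of Map3k1 in 6, of Tnfaip3 in 5, and of Ikbke and Tnfrsf9 in 4 (0.0569 to 0.207). With the block the same calls, in the same genotype, held in all 8, but for Fas, lost without wild-type day 0 replicate 2. Between genotypes after TNF, limma without the block called 0 genes of the 6 lists. With the block, where 9.28% of all genes were called, it called 4 of the 20 kinases (Map2k3 higher in the knockout; Ikbke, Map3k5 and Mapk14 lower) and 2 of the 16 TRAF partners (Ecsit higher, Tifa lower). It also called 2 of the 14 receptors (Tnfrsf9 higher, Fas lower), 1 of the 12 ligands (Tnfsf9, lower), and 0 of the 18 TNFR1 regulators and the 11 NF-kB genes. Each list with such calls lost all of them in some blocked fit with 1 library left out. The calls of Map2k3, Map3k5, Mapk14, Ecsit, Tifa and Tnfsf9 were not followed singly through those fits. Of these blocked calls, that of Ikbke was lost without replicate 2 of either TNF group (0.0885 for the knockout, 0.140 for wild type). That of Tnfrsf9 held only without wild-type TNF replicate 1 (0.0291), and that of Fas only without replicate 1 of either TNF group (0.0414 for the knockout, 0.0372 for wild type). Between genotypes at day 0 and in the difference of TNF responses, limma called 0 genes of the 6 lists, with and without the block.

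**Figure D4:**
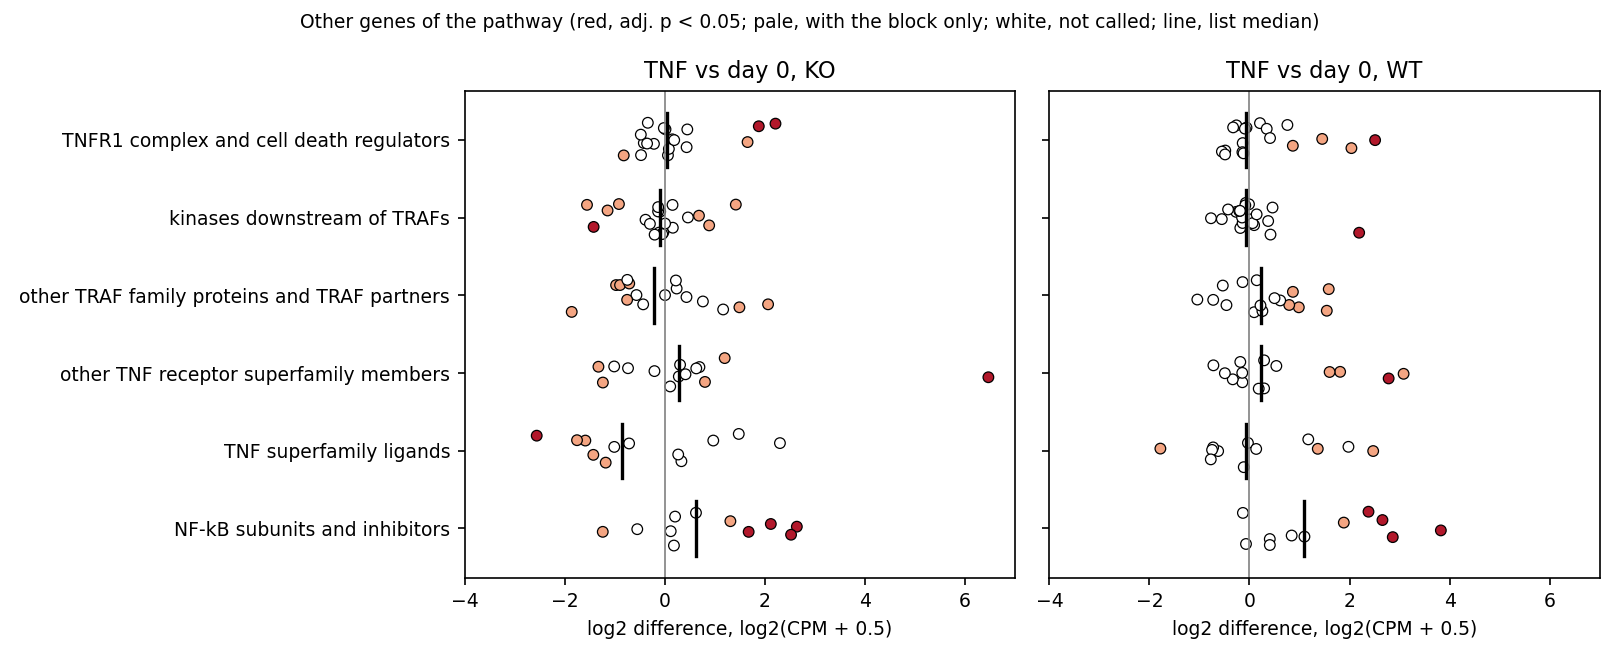
Log2 difference with TNF (x axis, log2(CPM + 0.5) scale) of the tested genes of 6 pathway lists (y axis), KO left and WT right; each point is a gene, lines are list medians, red marks adjusted p under 0.05 and pale red with the block only. The NF-kB list has the highest median in both panels (0.62 and 1.10), and the far right point in KO is Tnfrsf9.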

How the data were processed

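The authors deposited 1 table of CPM (a gene's reads scaled to the library total) for the 8 libraries. The submitters' processing notes name the tools fastp, HISAT2, HTSeq and edgeR and the build mm10. Versions, settings and annotation are not given in the sources used here. All values (100%) were within 0.01 of a whole multiple of 1 read, so reads and depths were recovered. The main test was limma 3.58.1 in R 4.3.3 (eBayes trend, 2-sided, 4 residual degrees of freedom) on log2(CPM + 0.5) of 12194 genes (49.9% of those listed). Its model held group alone, and the threshold was an adjusted p of 0.05. edgeR 4.0.16 (quasi-likelihood) and DESeq2 1.42.0 on recovered reads served as alternatives. Each fit was also run on simulated reads in which every group had the same replicate shift. In the data that shift was shared between groups only in part, so those runs do not show how well the fits do here.

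The replicate numbers were taken to pair the libraries, as the series states 2 independent experiments and the replicate 2 minus 1 differences correlated in all 6 pairs of groups (Pearson r 0.58 to 0.80 over genes, not independent replicates). No label says which experiment a number marks. The block leaves 3 residual degrees of freedom. Replicates of a group differed by more than sampling noise. All 10 genes were named, with up to 4 genes of each list, those that passed in most comparisons, ties by the largest difference. Other genes were added after their values were seen. These were Tnfsf11, the macrophage markers named singly, Itgax, the overlapping genes and the list genes called between genotypes with the block. The genes and lists were chosen with earlier results of these data known. Positions and exon lengths are from GENCODE M21 (GRCm38). Having 2 libraries a group limits the precision.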

Additional observations from a re-analysis of the deposited data

How the results depend on the processing

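Counts of genes called below are over all genes, with those among the 10 members in parentheses; without the block they were 622 (1) for TNF in the knockout, 144 (1) for TNF in wild type, 1 (0) between genotypes after TNF, and 0 at day 0 and for the response difference. With the replicate block they were 3162 (6), 1250 (5), 1131 (0), 1 (0) and 0. With the block in edgeR they were 3074 (5), 1163 (5), 811 (0), 1 (0) and 0. edgeR without the block gave 497 (0), 60 (0), 0, 0 and 0, and DESeq2 gave 1701 (3), 874 (5), 593 (0), 24 (0) and 79 (0). A pseudocount of 2 gave 21 after TNF. No filter on low values gave 78 (0) for TNF in wild type and 13 after TNF. Median-ratio scaling gave 123 (0) for TNF in wild type and 2 after TNF. Fitting only the 2 groups compared gave 71 (0) and 28 (1) for TNF, and 0 after TNF. Leaving out each library in turn gave 43 to 509 genes (0 to 1 members) for TNF in the knockout, 0 to 84 (0 to 2) in wild type and 0 in the other comparisons. With the block these became 894 to 3069 (2 to 6), 249 to 1377 (1 to 5), 0 to 1169 (0 to 2) after TNF, 0 to 2 (0) at day 0 and 0 to 358 (0 to 1) for the response difference. The causes were not tested.

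Each value that changed sign was of a difference not called in the main fit, though some of these genes were called in other comparisons. The wild-type TNF difference of Traf6 was 0.0965 with median-ratio scaling, 0.125 with edgeR, 0.134 with DESeq2 and 0.0811 with edgeR and the block. That of Map3k14 was 0.0951, 0.0744, 0.0844 and 0.0932 in the same order, and that of Rbpj 0.00689, 0.00834, 0.0178 and 0.00677. Traf6 at day 0 was 1.59e-04 with DESeq2. Leaving out single libraries, with or without the block, gave the following ranges. For TNF in the knockout Tnfrsf1b ranged over -0.0211 to 0.62. For TNF in wild type Map3k14 ranged over -0.32 to 0.29, Rbpj -0.30 to 0.0864, Tnfrsf1a -0.62 to 0.00502 and Traf6 -0.25 to 0.22. Between genotypes after TNF Ripk1 ranged over -0.23 to 0.0539, Tnfrsf1a -0.43 to 0.20 and Traf3 -0.13 to 0.28. At day 0 Birc3 ranged over -0.22 to 1.11, Map3k14 -0.0795 to 0.54, Ripk1 -0.27 to 0.10, Tnfrsf11a -0.71 to 0.55, Tnfrsf1a -0.0158 to 0.46, Traf1 -1.00035 to 1.16, Traf2 -0.0606 to 0.25 and Traf6 -0.24 to 0.22. For the response difference Ripk1 ranged over -0.19 to 0.18, Traf1 -1.75 to 0.41 and Traf3 -0.31 to 0.10.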
